A study of Homo sapiens with 11 samples.

Results

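The GREB1 locus was described from 8 peak lists of chromatin immunoprecipitation followed by sequencing in Ishikawa cells, an established human endometrial cancer line. Every peak that overlapped chr2:11570000-11885000 (hg19) was taken, a window that holds the GREB1 body as given for this work (about chr2:11674242-11782912, plus strand) with 104242 bp before it and 102088 bp after it. This gave 58 of the 90458 peaks of the series, 20 of them receptor peaks and 38 of them peaks of acetylated histone. The locus was selected on these same peak calls, in particular a strong glucocorticoid receptor peak upstream of the gene that was called only when both hormones were present. The calls are therefore given as a description.

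Cells were kept in charcoal-treated serum without phenol red and then given the synthetic glucocorticoid dexamethasone at 100 nM, estradiol at 10 nM, both together (the combination) or the DMSO vehicle. The estrogen receptor (ER) was profiled after 1 h of estradiol and of the combination, and the glucocorticoid receptor (GR) after 1 h of dexamethasone and of the combination. Histone H3 acetylated at lysine 27 (H3K27ac) was profiled after 8 h of vehicle, estradiol, dexamethasone and the combination. Each group was 1 library of 1 cell line, so no spread between replicates exists and no test between treatments could be made.

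GREB1 is a classic early target of estrogen, and its protein binds ER and serves as a cofactor in breast cancer cells. ER and GR are nuclear receptors that bind DNA when their hormone is present, at different palindromic response elements that share a general layout, and both can also sit at enhancers through other bound proteins. H3K27ac marks active promoters and enhancers. In the RefSeq gene order the protein-coding neighbours are E2F6, a repressor of the E2F family, before GREB1, and the neurotensin receptor gene NTSR2 and then LPIN1, which encodes the phosphatidate phosphatase lipin 1, after it. The RefSeq record of GREB1 (gene 9687, GRCh38.p14) spans 159901 bp, longer than the 108671 bp body used here. Distances below run to the start of that shorter body, and whether a site lies in an exon, an intron or a longer transcript was not analysed here.

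Receptor binding at GREB1 lay in one stretch of 41.5 kb, from 35.6 kb upstream of the gene start to 5.92 kb inside the gene. ER was called in 8 peaks with estradiol and in 6 with the combination. GR was called in 6 peaks with the combination and in 0 with dexamethasone alone. Joined across lists, these 20 peaks formed 7 sites, 6 of them upstream and 1 inside the gene. The remaining 102.75 kb of the body held no receptor peak in any list.

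**Figure D1:**
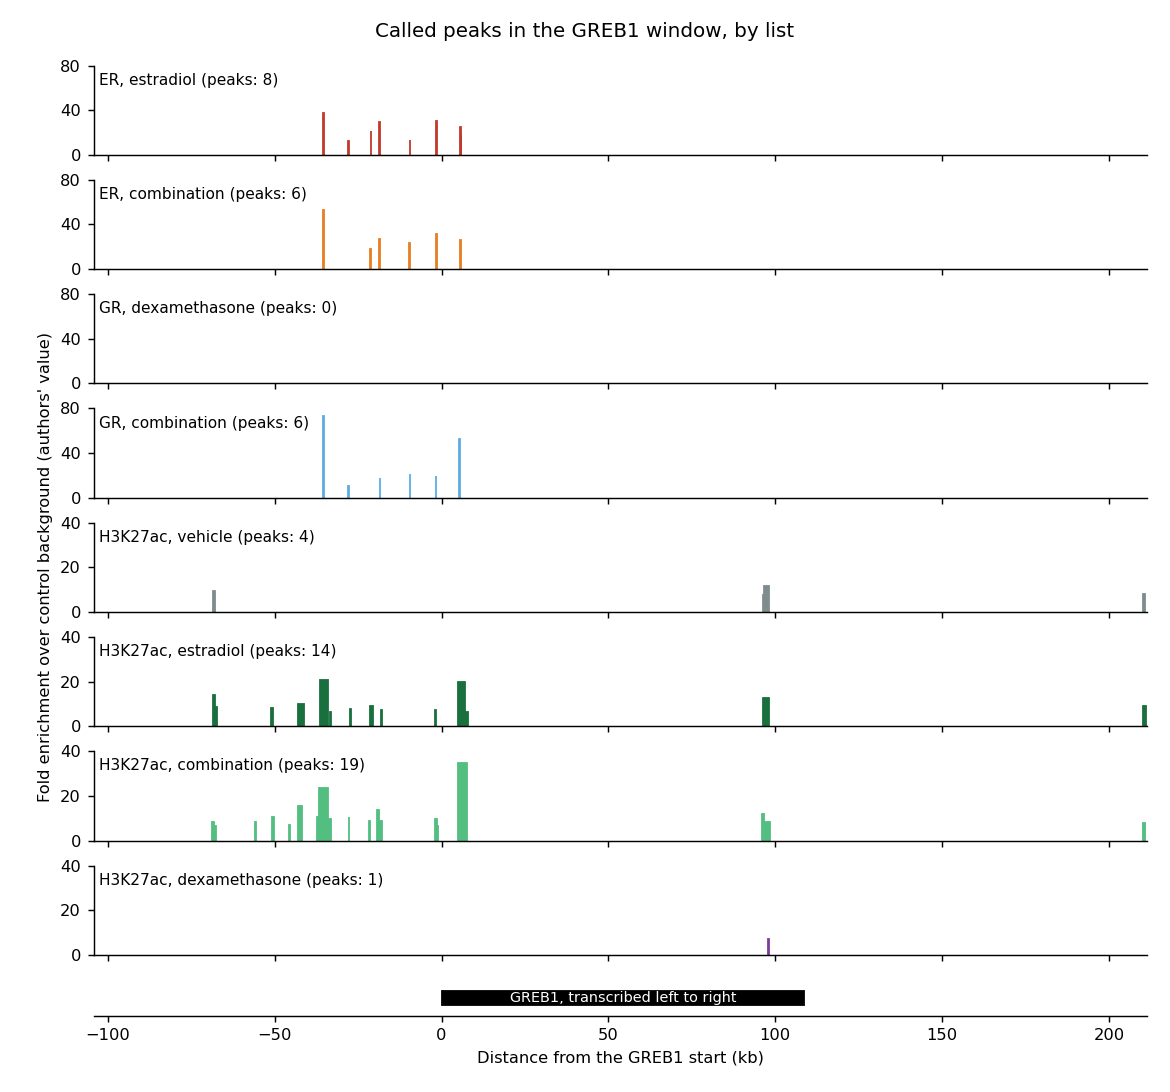
Called peaks of each list across the GREB1 window, by distance from the gene start in kb, with the gene body as a black bar. Bar height is the authors' fold enrichment, which is read within a list only. ER and combination GR peaks stand in 1 stretch around the gene start, the dexamethasone GR row is empty, and the dexamethasone H3K27ac row holds 1 peak near the end of the gene.

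The leading site lay 35.4 kb upstream. ER was called there with estradiol at chr2:11638702-11639005 with a fold enrichment of 37.1 over the control background, rank 47 of 3560 by the authors' −log10 q. With the combination ER was called at chr2:11638683-11639012 with a fold enrichment of 53.2, rank 10 of 2382. GR with the combination was called at chr2:11638644-11638971 with a fold enrichment of 73.1, rank 15 of 1628. The site was thus among the strongest of each of the 3 lists that held it. What these folds are measured against is not certain. The labels of the control sample, whose title names H3K27ac, mention both input and IgG. The control tags differed between targets (3479280 for ER, 5735043 for GR and 14002417 for H3K27ac). The 3 targets therefore did not share 1 set of control tags. Whether ER and GR were called against a vehicle, an input or an IgG library is not known here. The summit coverage behind these calls was 179 fragments (95% Poisson interval 154 to 207) for ER with estradiol, 231 (202 to 263) for ER with the combination and 92 (74.2 to 113) for GR, before the authors' scaling. Those intervals cover counting error only. The estimated fragment length was 90 bp in the estradiol ER library and 121 bp in the combination ER library, and longer fragments raise the coverage of a summit, so values were ranked within a list and not compared between lists.

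The site inside the gene, 5.58 kb past its start, was the next strongest for GR. Its GR peak at chr2:11679617-11679922 had a fold enrichment of 52.9 and rank 45 of 1628. ER was split into 2 peaks there with estradiol, chr2:11679707-11679937 (fold enrichment 25.03, rank 441) and chr2:11679994-11680159 (17.5, rank 1451). With the combination ER formed a single peak of 514 bp, chr2:11679649-11680162, with a fold enrichment of 25.9 and rank 167. The GR peak reached the first of the 2 estradiol ER peaks and not the second.

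The site nearest the gene start lay 1.57 kb before it. ER was strong there in both lists, with a fold enrichment of 30.3 and rank 212 with estradiol (chr2:11672548-11672824) and of 31.8 and rank 183 with the combination (chr2:11672545-11672808). The GR call at chr2:11672598-11672738 was of middling strength, with a fold enrichment of 19.2 and rank 534 of 1628. By −log10 q in the combination lists, both receptors placed the leading site first and the intragenic site next. ER placed the site nearest the gene start after them, whereas GR placed the site 9.50 kb upstream ahead of it.

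Of the other 4 sites, 2 were called in all 3 of these lists. At 18.5 kb upstream ER had a fold enrichment of 29.6 with estradiol (chr2:11655658-11655876, rank 418) and of 26.6 with the combination (rank 469), and GR one of 17.8 (rank 615). At 9.50 kb upstream ER had a fold enrichment of 13.0 with estradiol (chr2:11664695-11664799, rank 2373) and of 23.2 with the combination (rank 662), and GR one of 21.5 (rank 459). This was the weakest estradiol ER peak of the window by −log10 q, and it stood in the weaker 50% of its list.

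The last 2 sites were each missing from one more list. At 21.2 kb upstream ER was called with estradiol (chr2:11652979-11653147, fold enrichment 21.6, rank 970) and with the combination (17.7, rank 1108), and GR was called in neither list. At 27.9 kb upstream ER was called with estradiol (chr2:11646302-11646463, fold enrichment 12.4, rank 2307) and GR with the combination (chr2:11646299-11646399, 10.2, rank 1368), while ER with the combination was not called. That GR call rested on 11 fragments (95% Poisson interval 5.49 to 19.7), near the lowest summit coverage of any call in its list, which was 8 fragments.

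**Figure D2:**
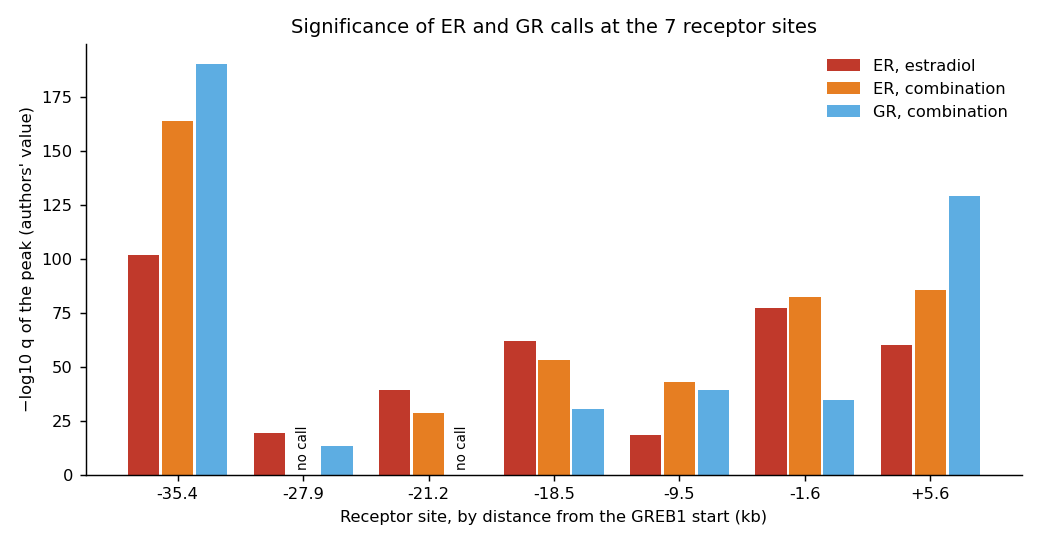
The authors' −log10 q of the ER and GR peaks at the 7 receptor sites, ordered by distance from the GREB1 start in kb (negative is upstream). Where a list has 2 peaks at a site the higher value is drawn, and missing calls are marked. The 35.4 kb site is highest in all 3 lists, and the 27.9 and 21.2 kb sites lack 1 call each.

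Nearly all ER calls at GREB1 were present with and without dexamethasone. Of the 8 estradiol ER peaks 7 (87.5%, 95% Clopper-Pearson interval 47.3 to 99.7) were called with the combination, beside 61.8% over the whole estradiol list. Over that list the share was higher among stronger peaks, and it is given below by steps of ER strength. In the other direction 6 of 6 combination ER peaks were estradiol peaks, beside 91.9% over that list. The pair of estradiol peaks inside the gene matched the same combination peak, and neighbouring peaks are not independent.

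Every GR call at GREB1 lay on an ER call. Of the 6 combination GR peaks 6 lay on an estradiol ER peak (43.5% over the list) and 5 lay on a combination ER peak (83.3%, 35.9 to 99.6, against 47.2% over the list). Seen from ER, 6 of the 8 estradiol peaks carried a combination GR peak (75%, 34.9 to 96.8), against 19.7% over the list. A dexamethasone GR peak was carried by 0 of 8, which allows a share of up to 37.5%, against 10% over the list. Of the 6 combination GR peaks, 0 were called with dexamethasone, which allows a share of up to 50%. Over the whole combination GR list 36.9% of peaks lacked a dexamethasone call. The dexamethasone GR library was the deeper of the GR pair, with 6353466 usable tags against 5206574, and its weakest call anywhere rested on 9 fragments. A GR signal below the calling cutoff with dexamethasone cannot be seen in a peak list. The locus was chosen on a GR call made only with the combination, and neighbouring peaks are not independent. These shares and intervals are therefore descriptive and test nothing.

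The pattern of both ER lists and combination GR without dexamethasone GR was found at 5 of the 7 sites, and at 8.22% of the 5219 joined receptor sites of the series. GR was not limited to the strongest estradiol ER peaks of the locus. Splitting the estradiol ER list into steps of 10% by −log10 q, the strongest step held 2 GREB1 peaks, both with combination GR (55.6% of that step), and the next step held 2 more, both with GR (36.7%). The third and the fifth steps held 1 each, both without GR (24.4% and 13.6% of those steps). The seventh step held 2, both with GR, where 9.38% of the step carried it. Those steps rank ER with estradiol alone, while GR was called with the combination. Of the 2 peaks, the one 9.50 kb upstream had rank 662 of 2382 for ER with the combination. The one 27.9 kb upstream had no combination ER call, and its GR call rested on 11 fragments. The share of estradiol ER peaks called for ER with the combination also fell along these steps. It was 100% in the strongest step, 99.4% in the next, 93.5% in the third, 69.0% in the fifth and 40.5% in the seventh. Most GREB1 peaks thus stood in steps where nearly all peaks of the list were called with the combination. The part ER strength plays was not tested.

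ER and GR summits nearly coincided. At the 5 sites called for both receptors with the combination, the summits lay 17 bp apart at the leading site, 55 bp at 18.5 kb upstream, 8 bp at 9.50 kb upstream, 2 bp at 1.57 kb upstream and 10 bp inside the gene. Their median of 10 bp stood beside 20 bp over 768 such sites of the series (middle 50% from 8 to 41 bp). Overlap of narrow peaks itself keeps these distances short.

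The ER peaks of GREB1 stood close together in a row. With estradiol, linking summits at most 10 kb apart gave 2771 runs in the genome, of which 2240 (80.8%) were single peaks, and the GREB1 run of 8 peaks was the longest. Of those 8 peaks 2 lay at the intragenic site. With the receptor peaks joined across lists the GREB1 run counted 7 sites, and 4 of 4033 runs were longer. The combination GR run of 6 peaks was the joint longest of 1386 runs, together with 1 other. The combination ER run counted 5 peaks, since the gap left by the missing 27.9 kb call exceeded 10 kb, and 1 of 1949 runs was longer. This standing depended on the linking distance, which was chosen after the positions were seen. At 20 kb 3 estradiol ER runs were longer, and at 5 kb the locus broke up into runs of at most 2, because its sites lay 2485 to 8737 bp apart.

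**Figure D3:**
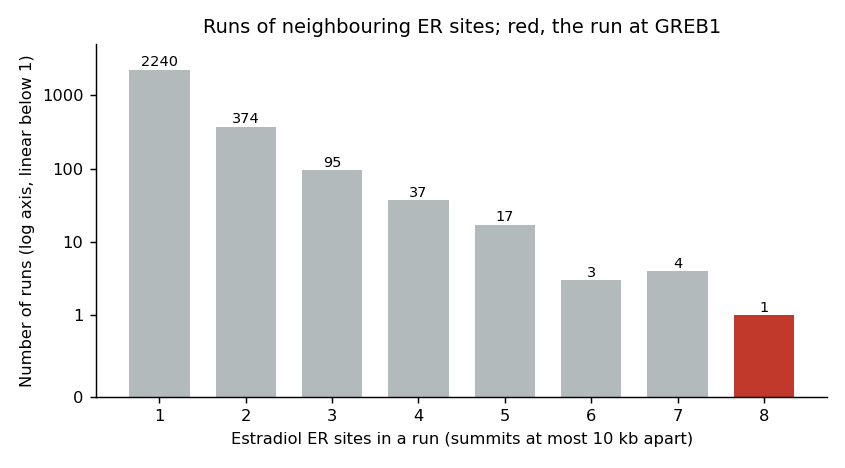
Number of runs of neighbouring estradiol ER peaks in the genome (log axis, linear below 1) by the number of peaks in the run, linking summits at most 10 kb apart. The red bar is the run at GREB1, the only run of 8 peaks, of which 2 lie at 1 site.

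H3K27ac at GREB1 was called around the receptor sites with estradiol and with the combination, and not with vehicle or dexamethasone. From 60 kb before to 12 kb after the gene start the estradiol list held 10 peaks and the combination list 14, while the vehicle and dexamethasone lists held 0. The edges of this stretch were not planned ahead, and a vehicle peak 68.3 kb upstream lay outside it. In the 41.5 kb of receptor binding alone the estradiol list held 7 peaks, the combination list 9, and the vehicle and dexamethasone lists 0. The whole lists held 23888 peaks with estradiol, 20873 with the combination, 21120 with vehicle and 15192 with dexamethasone. Most H3K27ac calls of the window were weak, with 10 of 14 estradiol and 12 of 19 combination peaks in the weaker 50% of their list. The vehicle library was the deepest, with 18508574 usable tags against 10852521 with estradiol, and the lowest summit coverage of any of its calls was 20 fragments. The dexamethasone library had the fewest usable tags, 9034395 against 9657258 with the combination, and the most duplicate tags, 33% against 22%. The part these differences play was not tested.

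**Figure D4:**
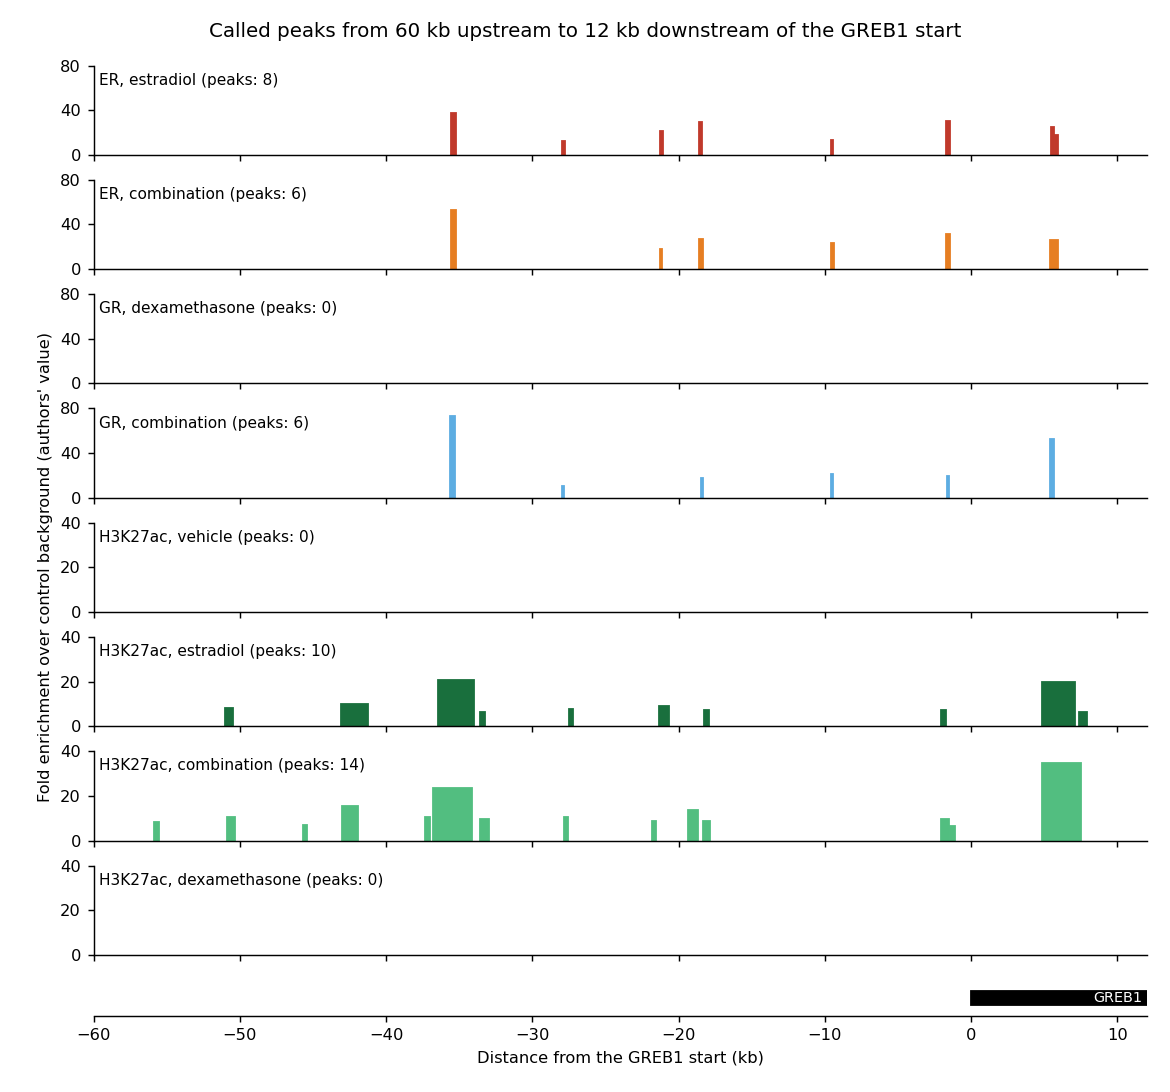
Called peaks of each list from 60 kb upstream to 12 kb downstream of the GREB1 start, by distance from the start in kb, with bar height as the authors' fold enrichment (read within a list). The estradiol and combination H3K27ac rows hold 10 and 14 peaks, with broad ones at the leading site and inside the gene. The vehicle and dexamethasone H3K27ac rows are empty.

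Broad acetylated stretches covered the 2 strongest GR sites. At the leading site the H3K27ac peak measured 2431 bp with estradiol (chr2:11637802-11640232, fold enrichment 20.7) and 2694 bp with the combination (chr2:11637426-11640119, 23.7). Inside the gene it measured 2246 bp with estradiol (chr2:11679118-11681363, fold enrichment 19.999) and 2627 bp with the combination (chr2:11679103-11681729, 34.6). These were the 2 widest H3K27ac peaks of the window in either list. By −log10 q the intragenic peak had rank 654 of 20873 with the combination and rank 4163 of 23888 with estradiol, and the peak at the leading site rank 1945 and rank 3850. No list held an H3K27ac peak over the gene start used here, that of the shorter body. Where the longer RefSeq record starts on hg19 was not analysed.

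At other sites narrower H3K27ac peaks lay beside or over the receptor site. At 21.2 kb upstream the estradiol peak (chr2:11652874-11653578, 705 bp, fold enrichment 9.02) covered the whole receptor site, and the combination peak (chr2:11652404-11652717, 8.58) lay beside it. At 18.5 kb upstream the combination list had peaks on both sides of the joined receptor site, chr2:11654888-11655576 (fold enrichment 13.6) and chr2:11655923-11656414 (8.83), and the estradiol list had one on the right side alone, chr2:11656004-11656348 (7.32). At 1.57 kb upstream the estradiol peak (chr2:11672200-11672535, fold enrichment 7.22) ended 9 bp before the receptor site, and the combination list had peaks at chr2:11672164-11672761 (9.47) and chr2:11672829-11673156 (6.55). The site 9.50 kb upstream had no H3K27ac peak within 1 kb in any list. Acetylation was also called at several places where no receptor was. An example is chr2:11631141-11632987 with estradiol (1847 bp, fold enrichment 9.76) and chr2:11631217-11632329 with the combination (1113 bp, 15.3).

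Counted by peak, H3K27ac overlapped 4 of the 8 estradiol ER peaks with estradiol (50.6% over the list) and 5 of 8 with the combination (46.5%). It overlapped 0 of 8 with vehicle (36.8% over the list) and 0 of 8 with dexamethasone (27.5%). The limit of 37.5% for 0 of 8 holds for independent peaks, which neighbouring peaks are not. The locus was chosen on these same calls, so the shares of this paragraph are descriptive and test nothing. Counted by site, H3K27ac overlapped 3 of the 7 with estradiol and 4 of the 7 with the combination. H3K27ac lay within 1 kb of 7 of the 8 peaks with estradiol (62.8% over the list) and of 7 with the combination (59.8%). It lay within 1 kb of 0 of the 8 with vehicle (45.7% over the list) and of 0 with dexamethasone (40.5%). Among the 429 sites of the series with the pattern of the 5 GREB1 sites, 47.8% had vehicle H3K27ac within 1 kb and 46.2% had dexamethasone H3K27ac, and 0 of the 5 had either. With estradiol 79% of the 429 had it and with the combination 78.1%, and 4 of the 5 GREB1 sites had it in both lists.

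Joining the 4 H3K27ac lists gave 20 regions in the window, of which 17 were absent from the vehicle list (34.9% of the 27111 regions of the series) and 19 from the dexamethasone list (59.3%). Regions called with estradiol and the combination only numbered 8 (5.34% of all regions), and those called with the combination only 7 (4.32%). Regions called with estradiol only numbered 2 (14.4%). A receptor site lay within 1 kb of 4 of those 8 regions, 4 of those 7 and 2 of those 2. The number called with the combination only was 2 when peaks within 1 kb were joined, since the others lay within 1 kb of a region called with estradiol. The number called with estradiol and the combination only was 3 when the lists were cut to equal length.

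Acetylation called without estradiol lay away from the receptor sites. One region, chr2:11770259-11772642 near the end of the gene, was called in all 4 lists (27.7% of all regions were). Its highest fold enrichment was 11.8 with vehicle, 12.7 with estradiol, 11.96 with the combination and 7.07 with dexamethasone, where 409 bp were called. It held the widest vehicle peak of the window (chr2:11770962-11772315, 1354 bp) and the third widest peak with estradiol (chr2:11770417-11772304, 1888 bp) and with the combination (chr2:11771224-11772642, 1419 bp). The dexamethasone peak there (chr2:11771942-11772350) was the only H3K27ac peak of the dexamethasone list in the window. A pair of regions was called in all lists but dexamethasone (21% of all regions were), 68.3 kb upstream at chr2:11605589-11606315 and at the far edge of the window at chr2:11884495-11885313. The vehicle peaks there measured 584 bp and 430 bp. Over the series, 43.1% of regions found in those 3 lists were missing with dexamethasone.

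Covered length followed the same order. H3K27ac peaks covered 2653 bp of the window with vehicle (4 peaks, mean fold enrichment 9.23), 409 bp with dexamethasone (1 peak, 7.07), 12964 bp with estradiol (14 peaks, 10.5) and 14452 bp with the combination (19 peaks, 11.6). As a share of all bases the list covered, this was 0.0148% with vehicle, 0.0033% with dexamethasone, 0.0536% with estradiol and 0.0713% with the combination. The mean fold enrichments are read within a list only. Over the whole list the mean was 11.15 with vehicle, 11.9 with dexamethasone, 13.4 with estradiol and 11.8 with the combination. In every list the mean of the window was thus the lower. Most of the cover with estradiol (7803 bp) and with the combination (9370 bp) lay upstream of the gene, where vehicle had 584 bp and dexamethasone 0 bp. With the 4 lists cut to equal length, 3 peaks (2368 bp) were left with vehicle, 1 (409 bp) with dexamethasone, 5 (9077 bp) with estradiol and 11 (11402 bp) with the combination.

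**Figure D5:**
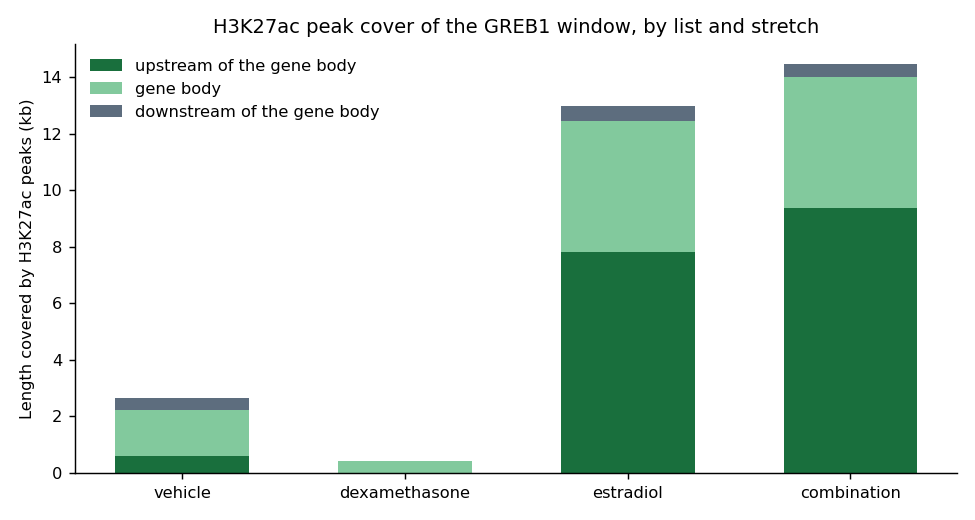
Length of the GREB1 window covered by H3K27ac peaks in each list, in kb, divided into the stretch upstream of the gene, the gene body and the stretch downstream. Each bar is 1 library. The estradiol and combination bars reach 12964 and 14452 bp, mostly upstream, against 2653 bp with vehicle and 409 bp with dexamethasone.

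Few other places shared the full pattern of the leading site, with ER in both lists, GR with the combination only, and H3K27ac with estradiol and the combination only. It was found at 89 of 1628 combination GR peaks (5.47%), of which 2 were at GREB1, the leading and the intragenic one. By GR −log10 q the leading site was second among the 89. The 3 strongest elsewhere were chr3:150562321-150562612 (GR fold enrichment 93.2, rank 1), chr2:238467696-238467917 (49.8, rank 30) and chr2:100253094-100253452 (39.8, rank 65). At the first of these ER had a fold enrichment of 35.5 with estradiol and 48.0 with the combination, and at the second 35.9 and 49.6.

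The edges of the window cut through no receptor group. The nearest ER peak outside was 307.241 kb before the window with estradiol, at chr2:11262559-11262759 with a fold enrichment of 28.3, and the nearest one on the other side lay 3897.4 kb past the far edge. For GR a peak lay just outside, 6.02 kb past the far edge, and was called in both GR lists, chr2:11891017-11891279 with dexamethasone (fold enrichment 31.5) and chr2:11891032-11891240 with the combination (25.9). Neither ER list held a peak there. The outermost peaks inside were the H3K27ac calls at that edge, with fold enrichments of 8.17 with vehicle, 9.02 with estradiol and 7.70 with the combination.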

How the data were processed

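The series lists 11 samples, of which 8 were used as peak lists, leaving out ER and GR with vehicle and the control sample (not used here). The 8 h of the H3K27ac samples comes from their treatment labels, since the protocol text gives 1 h for all. The submitters' processing notes name Bowtie 1.1.2, the hg19 build and MACS2 2.1.0.20140616. Per the file headers, each library was called against a control at a p cutoff of 1e-10, keeping 1 tag per position and scaling the larger library towards the smaller. The deposited pileup is the signal at the summit, in fragments covering it once scaled. Dividing it by the scaling factor gave whole fragments (within 0.05) at every peak. The authors deposited −log10 p-values and −log10 q-values for each peak, with a ratio (fold enrichment) of the summit over its local control. Deposited positions are 1-based, as the width of every peak shows.

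Usable tags ranged from 5206574 to 8508828 in the receptor lists and from 9034395 to 18508574 in the H3K27ac lists. Peaks overlapped when they shared at least 1 bp. Shares carry exact Clopper-Pearson 95% intervals over peaks, and coverage exact Poisson ones, both for counting error only. For a share of 0 the limit given is instead 3 divided by the number of peaks, an approximation. The exact upper ends were 36.9% for 0 of 8 and 45.9% for 0 of 6. Regions were joined when overlapping or adjacent. Sites called in 2 or more receptor lists or in the top 10% of a list were described in full, with the 3 widest H3K27ac peaks of a list and the sites elsewhere most like the leading one. The members, lists and settings were chosen with earlier results of these data known. Gene lists and motifs were not analysed here, since no hg19 genome or annotation was used. RefSeq tables of GRCh38.p14 gave the names and order of genes only. The overlap code was tested on simulated intervals. Python 3.11.15, pandas 2.3.3, numpy 2.4.6, scipy 1.17.1 and matplotlib 3.10.9 were used.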

Additional observations from a re-analysis of the deposited data

Results flagged for a closer look

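The number of H3K27ac peaks in the window moved in opposite directions when dexamethasone was added without and with estradiol. Dexamethasone minus vehicle was -3 peaks (1 against 4), and combination minus estradiol was 5 peaks (19 against 14). The covered length differed by -2244 bp and by 1488 bp. The libraries differed in depth, with 18508574 usable tags for vehicle against 9034395 for dexamethasone, and 10852521 for estradiol against 9657258 for the combination. The part depth plays was not tested. Peak number also depends on how a stretch is split into calls. With peaks within 1 kb joined across the lists, 13 regions were left. Of these 2 were called with the combination only, 3 with vehicle and 1 with dexamethasone. In the gene body alone the estradiol and combination lists held 3 peaks each (4655 and 4625 bp), so the opposite direction was not seen there. Over the whole lists both differences were negative, -5928 and -3015 peaks. The difference between the 2 backgrounds was not tested, since each list is 1 library.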

How the results depend on the processing

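Of 80 alternative values over 20 results, 52 stayed close to the reported one (within 1.5 times for a count or length, within the 95% interval for a share). For shares this rule was loose, because the intervals over so few peaks were wide. The share of estradiol ER peaks with combination GR counted as close at 50% (1 of 2) in the gene body, against 75% (6 of 8). Restricting the window to the gene body left 2 ER peaks with estradiol, 1 ER and 1 GR peak with the combination, and 2, 3 and 3 H3K27ac peaks with vehicle, estradiol and the combination, covering 1639, 4655 and 4625 bp. The ER share called with the combination and the GR share on combination ER were then 100%. With 250 kb each side, dexamethasone GR had 1 peak, vehicle H3K27ac 8 and dexamethasone H3K27ac 3. In the stronger 50% of each list, there were 1 vehicle, 4 estradiol, 7 combination and 0 dexamethasone H3K27ac peaks, covering 1354 bp with vehicle, 7230 bp with estradiol and 0 bp with dexamethasone, and the same ER and GR shares were 100%. With lists cut to equal length, H3K27ac peaks numbered 5 with estradiol and 11 with the combination, and regions of estradiol and the combination only numbered 3. Regions of the combination only numbered 2 when peaks within 1 kb were joined. Requiring cover of at least 50% left 0 regions with dexamethasone. Linking distances for runs of sites, added after the data were seen, gave a GREB1 run of 2 estradiol ER peaks at 5 kb and of 8 at 20 kb. No paired analysis was possible because each group holds 1 library. A peak absent from a list may lie below the cutoff, and levels could not be compared between libraries.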

Other observations

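At the third site elsewhere with the leading site's pattern, chr2:100253094-100253452, the GR fold enrichment of 39.8 stood beside ER fold enrichments of 2.98 with estradiol and 3.91 with the combination. The estradiol value is the lowest of the whole estradiol ER list. At the GREB1 leading site the ER values were 37.1 and 53.2.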
